A study of Rattus norvegicus with 24 samples.

Results

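The genes described here encode the SR proteins, the hnRNPs and neighbouring families of splicing factors in rat urethra after a birth injury model. They were chosen by symbol alone: Srsf with a number, Hnrnp with a suffix, Srrm1 to Srrm4, Tra2a and Tra2b, Sf3a and Sf3b subunits, and Rbm with a number. The rule found 77 genes among 32883 in the table, and a symbol listed more than once was taken at its row of highest mean. By role they were 12 SR proteins, 6 SR-related proteins, 19 hnRNPs, 9 SF3A and SF3B subunits and 31 RBM proteins. Of these, 75 had a mean of at least 2 normalized counts over all samples and were tested. Srsf8 had no read in any sample and Rbm12 had at most 1.

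All 24 urethras came from female Sprague-Dawley rats aged 12 weeks that had undergone simulated vaginal delivery (SVD), in which the pudendal nerve is crushed and the vagina distended. The rats then received an injection into the aorta of saline, of 500000 MABsallo, or of 500000 MABsallo-VEGF, and the tissue was taken 3d or 7d later, giving 6 groups of 4 samples. MABsallo are allogeneic mesoangioblasts, vessel-associated muscle progenitors grown from the hind-limb muscle of other rats and carrying a lentiviral reporter of eGFP and firefly luciferase. MABsallo-VEGF carried a lentiviral construct for VEGF165 and a truncated CD34, and the labels give their samples as VEGF OE and those of the other groups as WT. All 6 groups were injured, so no uninjured urethra enters any comparison. Reads from injected cells and from the host cannot be told apart, and in bulk tissue fewer cells of a type cannot be told apart from less RNA per cell. Within the MABsallo-VEGF 7d group the labels mark replicates 6 and 7 as recovered.

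Before a pre-mRNA is spliced, SR proteins bind exons through an RNA recognition motif and recruit the spliceosome through their arginine and serine rich domain, while hnRNPs bind the same transcripts and often oppose that recruitment. SF3A and SF3B are parts of the U2 small nuclear ribonucleoprotein, which marks the branch site. SR proteins are phosphorylated by the Srpk and Clk kinases and carried into the nucleus by the importin Tnpo3. Several of these genes regulate their own level through exons that send the transcript to nonsense-mediated decay, and a 3′ tag count such as this one does not separate such forms. The Rbm symbol stands for a shared RNA-binding motif and not for one function: some of its bearers act in splicing, others in ribosome assembly, RNA decay or translation.

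Values are normalized counts from 3′ mRNA tag libraries, in which a gene gives about one read per captured transcript. Libraries held 2170695 to 10166052 reads assigned to genes, with 2170695 to 4491900 in MABsallo 3d, 3042531 to 4261098 in MABsallo-VEGF 3d and 4851797 to 5249467 in saline 3d. One read was worth 5.42 to 9.23 normalized counts in MABsallo 3d, but 3.44 to 3.92 in saline 3d. The 77 genes together took 0.582% to 0.958% of a library's reads. On the first principal component of the 500 most variable other genes (70.7% of their variance), saline 3d replicate 6 stood at 54.7 while the other saline 3d samples stood at -52.3 to -6.55. MABsallo-VEGF 3d replicate 4 stood at 0.607, against 57.2 to 75.1 in the other samples of its group. Both were kept, and results that rest on them are also given without them, over 22 samples. This component also sets most saline 3d samples apart from most cell-treated 3d samples, so leaving these 2 libraries out favours a difference. Saline 3d replicate 8, at -52.3, lay among the 7d samples.

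**Figure D1:**
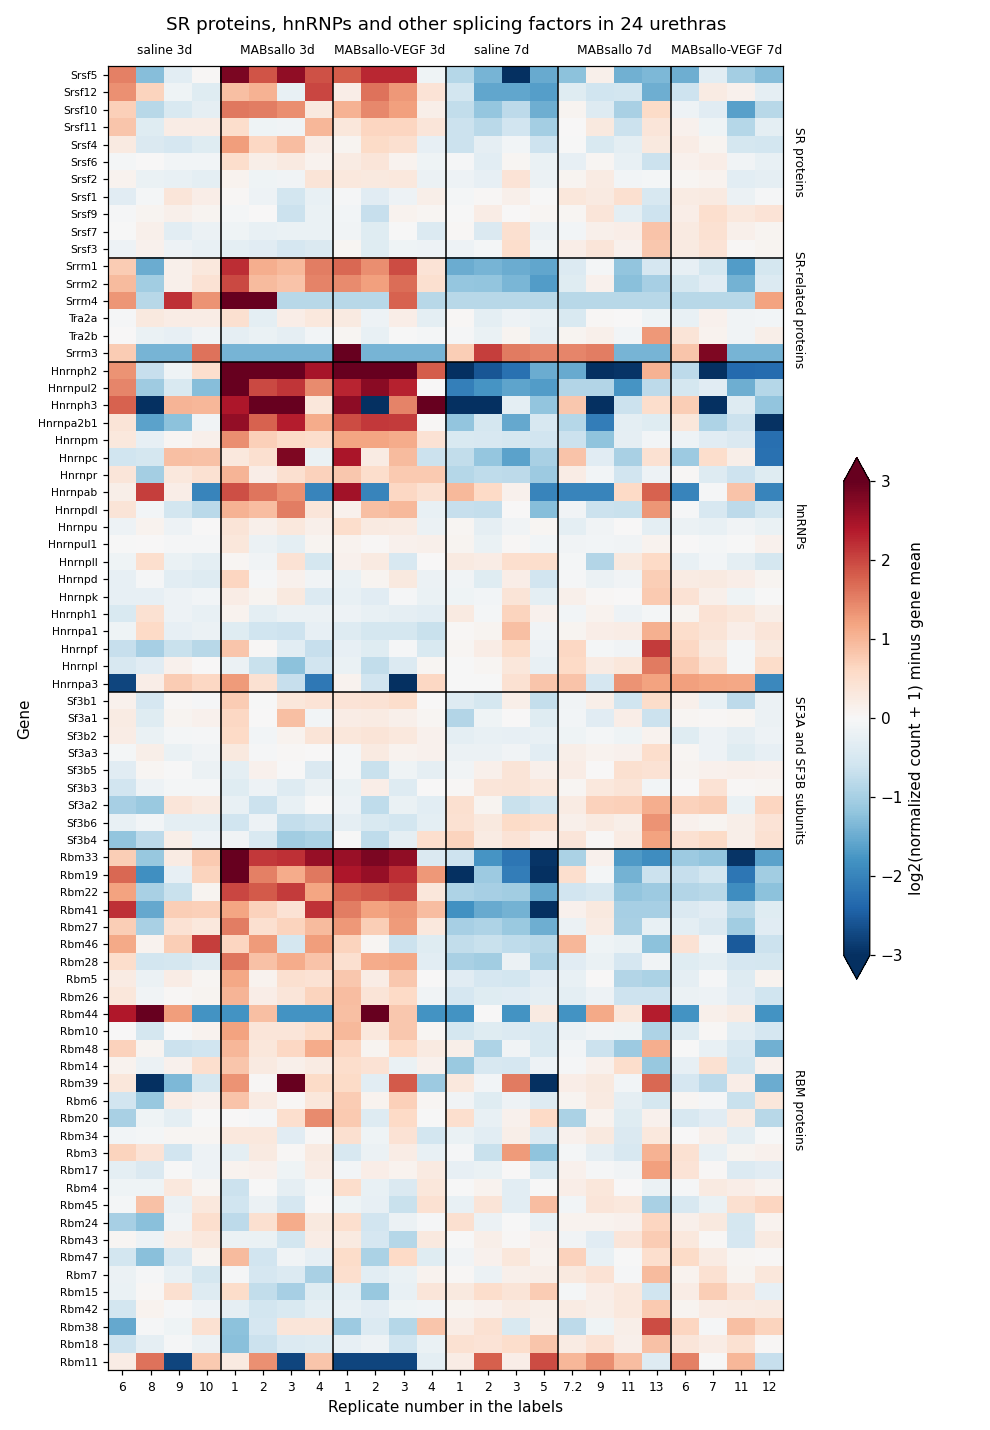
Levels of the 75 tested splicing factor genes (rows, by role and then by the difference between 3d and 7d) in the 24 urethras (columns, by group and replicate number), as log2(normalized count + 1) minus the gene's mean, with colours capped at 3 in either direction. A block of genes at the top of each role except SF3A and SF3B is high in MABsallo 3d and in 3 of the 4 MABsallo-VEGF 3d samples, and saline 3d replicate 6 is higher for many of these genes than the rest of its group.

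At 3d, 12 of the 75 genes were differentially expressed between MABsallo and saline, and all 12 were higher in MABsallo. They were Hnrnph2, Hnrnpa2b1, Hnrnpul2, Rbm33, Srsf5, Rbm22, Srrm1, Srsf10, Rbm28, Hnrnpdl, Srrm2 and Srsf4, with log2 fold changes from 3.09 down to 1.02. A gene was called differentially expressed where its level at least doubled or halved (a log2 change larger than 1 in size) and its adjusted p (limma, Benjamini-Hochberg over all genes tested) was below 0.05. By this rule 12.3% of all 16287 genes tested were called (9.4% higher, 2.86% lower), so the 16% among these genes lies close above that background. The median log2 fold change was 0.27 over the 75 genes and 0.07 over all genes. Values were apart without overlap and higher in MABsallo in 10 genes (9.44% of all genes), and lower in 2, Hnrnpa1 and Srsf3 (5.22%). The calls were spread over roles: 3 of 11 SR proteins, 2 of 6 SR-related proteins, 4 of 19 hnRNPs, 3 of 30 RBM proteins and 0 of 9 SF3A and SF3B subunits.

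Among the SR proteins, Srsf5, which binds exonic enhancers and promotes exon inclusion, read 547, 78.4, 154 and 197 normalized counts in the saline 3d samples. It read 1363, 706, 1219 and 721 in MABsallo 3d. The groups did not overlap, and the log2 fold change was 2.33 ± 0.61 (SE, n = 4 and 4, limma adjusted p = 0.0174). Srsf10, a factor that represses splicing when dephosphorylated, as after heat shock, read 802, 274, 354 and 405 in saline 3d and 1456, 1411, 1292 and 602 in MABsallo 3d. Its lowest MABsallo sample lay below the highest saline sample, yet the difference passed the test (1.41 ± 0.39, limma adjusted p = 0.0207). Srsf4, a large SR protein, showed the smallest called change, from 1039 ± 290 (SD, n = 4) in saline to 2122 ± 639 in MABsallo (1.02 ± 0.26, limma adjusted p = 0.0146).

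The remaining tested SR proteins were not called. Srsf2, a founding SR protein that also activates transcription elongation, was the most abundant at a mean of 11101 normalized counts. It read 9012 to 11824 in saline 3d and 10022 to 14338 in MABsallo 3d (0.22 ± 0.19, limma adjusted p = 0.45). Srsf1, a general splicing factor and proto-oncogene, read 3195 to 5139 in saline and 2751 to 4146 in MABsallo (-0.27 ± 0.20, limma adjusted p = 0.377). Srsf3, the smallest SR protein, read 3301 to 4229 in saline 3d and 2714 to 3117 in MABsallo 3d. Those Srsf3 values did not overlap, but the test was not passed (-0.30 ± 0.18, limma adjusted p = 0.249). Srsf7 and Srsf11 had log2 fold changes of -0.10 and 0.10, and the sign for Srsf11 turned under some settings.

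The SR-related coactivators Srrm1 and Srrm2, large serine and arginine rich proteins that bridge factors bound to exons and, for Srrm2, build nuclear speckles, were both higher. Srrm1 read 5420, 1129, 3549 and 3945 in saline 3d and 14733, 6713, 6222 and 9238 in MABsallo 3d, with no overlap (1.51 ± 0.40, limma adjusted p = 0.0184). Srrm2 read 21001, 5319, 12226 and 14854 in saline 3d and 42750, 21090, 19811 and 30596 in MABsallo 3d. One saline sample, replicate 6, lay above the lowest MABsallo sample (1.19 ± 0.37, limma adjusted p = 0.0361). Srrm2 alone took 12.9% to 19.4% of the reads of the 77 genes in MABsallo 3d, 4.4% to 13.7% in saline 3d and 2.9% to 4.37% in saline 7d. The Tra2 proteins, which bind GAA-rich exonic enhancers, stayed near their saline level, with log2 fold changes of -0.01 ± 0.18 for Tra2a and -0.07 ± 0.21 for Tra2b. Srrm3 and Srrm4, activators of neuronal microexons, had at most 6 and 3 reads in any library.

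Of the 12 called genes, the 3 with the largest differences were hnRNPs. Hnrnpa2b1, which packages nascent transcripts and sorts RNA for transport, read 334, 82.3, 107 and 236 in saline 3d and 1583, 875, 1311 and 553 in MABsallo 3d. Every MABsallo sample was above every saline sample (2.62 ± 0.60, limma adjusted p = 0.0104). Hnrnpul2, a relative of the nuclear scaffold protein Hnrnpu, read 475, 82.3, 125 and 70.4 in saline 3d and 1463, 684, 766 and 467 in MABsallo 3d (2.49 ± 0.55, limma adjusted p = 0.00843). The saline value of 475, from replicate 6, lay just above the lowest MABsallo value. Hnrnph2, which binds runs of G, read 51.6, 11.8, 17.9 and 28.2 in saline 3d and 263, 230, 277 and 114 in MABsallo 3d (3.09 ± 0.95, limma adjusted p = 0.0323). These are few reads, 3 to 15 per library in saline and 21 to 42 in MABsallo, so its fold is less certain than the others. Hnrnpdl, an RNA-binding relative of Hnrnpd, read 338 to 778 in saline and 759 to 1726 in MABsallo (1.23 ± 0.39, limma adjusted p = 0.0373).

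Other hnRNPs did not follow. Hnrnph1, a close paralog of Hnrnph2 and the most abundant hnRNP at a mean of 7581, had a log2 fold change of -0.04 ± 0.19 (limma adjusted p = 0.911). Hnrnpk, which binds C-rich RNA, and Hnrnpu had 0.24 ± 0.20 and 0.30 ± 0.15, neither past the test. Hnrnpa1, the classical exon silencer and a relative of Hnrnpa2b1, read 3030, 5001, 2802 and 2921 in saline 3d and 2556, 2172, 2160 and 2772 in MABsallo 3d. Its difference pointed down and did not pass (-0.47 ± 0.23, limma adjusted p = 0.158). Hnrnpc, which binds U tracts, read 41.3 to 118 in saline 3d and 54.2 to 443 in MABsallo 3d, with 1 MABsallo sample far above the others (0.68 ± 0.71). Reads that matched several places were discarded upstream, so hnRNP genes with near-identical copies elsewhere in the genome may be undercounted, and their levels are uncertain. How the annotated 3′ ends of genes with few reads, such as Hnrnpa2b1, Hnrnpc, Hnrnph3 and Rbm39, bear on their counts was not tested.

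No SF3A or SF3B subunit was called. Sf3b1, the subunit that clasps the branch site, read 3116 to 4807 in saline 3d and 4377 to 7448 in MABsallo 3d (0.46 ± 0.25, limma adjusted p = 0.204). Sf3b2 (0.27 ± 0.15), Sf3a1 (0.35 ± 0.24), Sf3b4 (-0.15 ± 0.31) and Sf3b6 (-0.31 ± 0.20) did not pass either. The 9 subunits ranged from -0.31 to 0.46, a narrower span than in any other role.

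Of the RBM genes 3 were called, and they differ in function. Rbm22, a component of the catalytic spliceosome that contacts the pre-mRNA and U6 RNA, read 451, 98, 122 and 208 in saline 3d and 781, 695, 831 and 445 in MABsallo 3d (1.87 ± 0.42, limma adjusted p = 0.00895). Rbm33, an RNA export factor, read 131, 35.3, 92.9 and 137 in saline 3d and 902, 345, 360 and 483 in MABsallo 3d (2.44 ± 0.69, limma adjusted p = 0.0222). Rbm28, a nucleolar protein linked to ribosome assembly, read 575, 270, 275 and 303 in saline 3d and 1207, 739, 868 and 727 in MABsallo 3d (1.36 ± 0.30, limma adjusted p = 0.0087). Rbm33 and Rbm28 did not overlap between the groups, and for Rbm22 saline replicate 6 overlapped the lowest MABsallo sample. The cold-inducible Rbm3 had -0.02 ± 0.39. The muscle splicing factors Rbm20, a regulator of titin, and Rbm24 read 82.6 to 162 and 361 to 1228 in saline 3d, and 159 to 434 and 497 to 1856 in MABsallo 3d. Their log2 fold changes, 0.82 ± 0.37 and 0.74 ± 0.36, did not pass (limma adjusted p = 0.135 and 0.162). Rbm39 read 13.8, 0, 3.57 and 7.04 in saline 3d and 28.4, 10.9, 231 and 16.3 in MABsallo 3d (2.83 ± 1.05, limma adjusted p = 0.0684). Its log2 fold change was 1.92 without the sample at 231, and it was called by DESeq2, by edgeR and over 22 samples. Rbm25 was not analysed here.

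**Figure D2:**
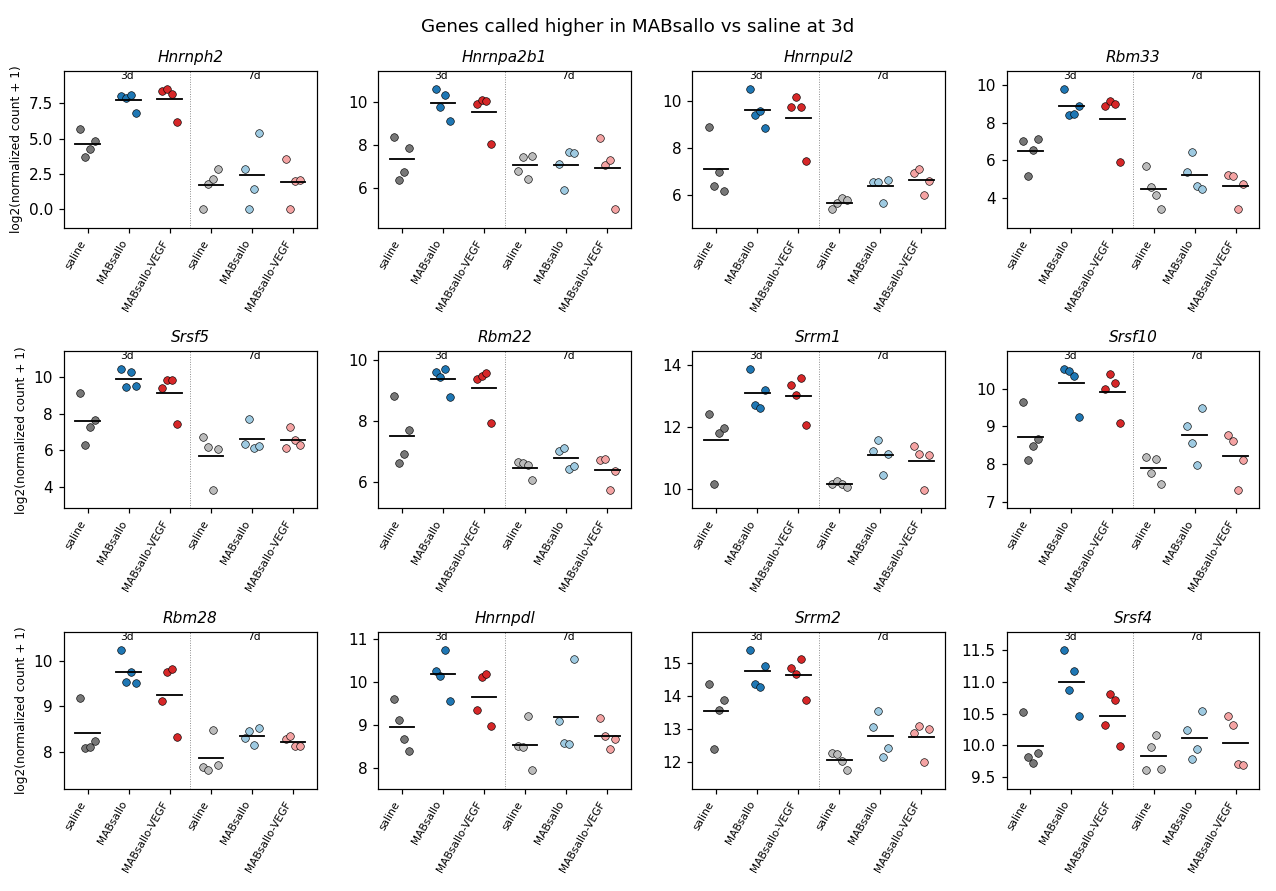
Each point is 1 urethra, as log2(normalized count + 1), and each bar is the mean of 4, for the 12 genes called higher in MABsallo than in saline at 3d. MABsallo 3d samples lie high, MABsallo-VEGF 3d samples lie beside them except replicate 4, which is the lowest of its group in all 12 genes, and in 9 of the 12 genes every 7d sample lies below the lowest MABsallo 3d sample, the exceptions being Hnrnpdl, Srsf10 and Srsf4. The 12 genes were picked for high MABsallo 3d values, which favours such a gap, and its share over all genes was not counted.

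The libraries themselves differed in step with these genes. Saline 3d replicate 6 was the highest of its group in 11 of the 12 called genes and replicate 8 the lowest in 9, and MABsallo 3d replicate 1 was the highest in 9. Without saline replicate 8 only 3 of the 75 genes were called, Hnrnpul2, Rbm22 and Rbm28 (4%, against 2.26% of all genes in that fit). Without MABsallo replicate 1 there were 4, those and Hnrnpa2b1 (against 4.51% of all genes). Without MABsallo replicate 3 or saline replicate 9 there were 7 (against 5.75% and 6.77%), and without saline replicate 6 there were 14 (against 17.3%). The share of all genes called thus moved from fit to fit as well. Leaving out both libraries named above likewise gave 14 calls, 18.7% against a background of 18.1%. Groups were then apart and higher in 22 genes (17.8% of all genes) and lower in 5 (10.2%). A fit of the 8 samples of these groups alone called none, and 0.0304% of all genes (25 of 75 had an unadjusted p below 0.05 in the fit of all 24, against 31.4% of all genes).

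Some cell type markers also differed. The summed level of 5 fibroblast markers was 339580 to 510379 in saline 3d and 54564 to 299904 in MABsallo 3d, and that of 6 mast cell markers was 572 to 2156 against 241 to 369. The 8 macrophage markers summed to 11821 to 23432 in saline 3d and 1541 to 13316 in MABsallo 3d, which overlapped. So did the marker sums of urothelium and squamous epithelium, endothelium, erythroid cells, adipocytes and Schwann cells. The sums of 7 smooth muscle markers (23827 to 176101 and 82929 to 144591) and of 7 striated muscle markers (56133 to 228552 and 93267 to 425018) overlapped. The part that cell composition or depth plays in the 12 calls was not tested.

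For MABsallo-VEGF at 3d no difference passed the test in all 24 samples: 0 of the 75 genes were called against saline, where the background was 0.0307%, and 18 had an unadjusted p below 0.05 in limma (17.9% of all genes). Values were apart without overlap and higher in 5 genes (2.36% of all genes) and lower in 1, Hnrnpa1 (1.64%). On the recovered reads DESeq2 called 6 (7.89% of those it tested, against 1.93% of all genes) and edgeR none (0.00614% of all genes). Hnrnph2 read 335, 367, 283 and 71.2 in MABsallo-VEGF 3d, above every saline 3d sample (3.19 ± 0.95, limma adjusted p = 0.104). Hnrnpa2b1 read 984, 1117, 1085 and 263 (2.20 ± 0.60, limma adjusted p = 0.0871). Hnrnpul2 read 849, 1142, 863 and 174 (2.17 ± 0.55, limma adjusted p = 0.0753). The fourth of each 4 values is replicate 4, the library that stood apart.

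Without that library and saline 3d replicate 6, 13 of the 75 genes were called higher in MABsallo-VEGF than in saline, 17.3% against a background of 13.6%. These were Hnrnpa2b1, Hnrnph2, Hnrnpm, Hnrnpul2, Rbm19, Rbm22, Rbm27, Rbm28, Rbm33, Srrm1, Srrm2, Srsf10 and Srsf5. The log2 fold change over 22 samples was 3.38 ± 0.40 for Hnrnpul2 (n = 3 and 3, limma adjusted p = 5.4e-05), 2.40 ± 0.35 for Rbm22, 2.03 ± 0.41 for Srrm1 and 2.63 ± 0.58 for Srsf5. Groups were then apart and higher in 30 genes (21.3% of all genes) and lower in 3 (11.8%). Leaving out only saline replicate 6 gave 10 calls (13.3%, against 6.83% of all genes), and leaving out only MABsallo-VEGF replicate 4 gave 11 (14.7%, against 7.72%). Both comparisons share the saline samples. The 2 libraries left out stood apart on a component that also separates these groups, so leaving them out widens the difference by choice. The share of all genes called rose with it, from 0.0307% to 13.6%, and the counts over 22 samples are no separate test.

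Between MABsallo-VEGF and MABsallo at 3d, 0 of the 75 genes were called by limma, with a background of 0.00614%, and 2 had an unadjusted p below 0.05 (6.13% of all genes). DESeq2 and edgeR also called none. The differences were -0.42 ± 0.60 for Hnrnpa2b1, -0.32 ± 0.55 for Hnrnpul2, -0.29 ± 0.42 for Rbm22, -0.77 ± 0.61 for Srsf5 and -0.08 ± 0.40 for Srrm1. The 2 genes past the unadjusted p were Srsf4 (-0.54 ± 0.26, limma adjusted p = 0.801) and Rbm11 (-2.06 ± 0.97, limma adjusted p = 0.797), both named after their values were seen. Rbm11 read 7.1, 16.4, 0 and 10.8 in MABsallo 3d and 0, 0, 0 and 4.45 in MABsallo-VEGF 3d. These are so few reads that its fold carries little information. In none of the 75 genes were the groups apart without overlap (0.853% of all genes were apart and higher, 0.774% apart and lower). The median over the 75 genes was -0.06.

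**Figure D3:**
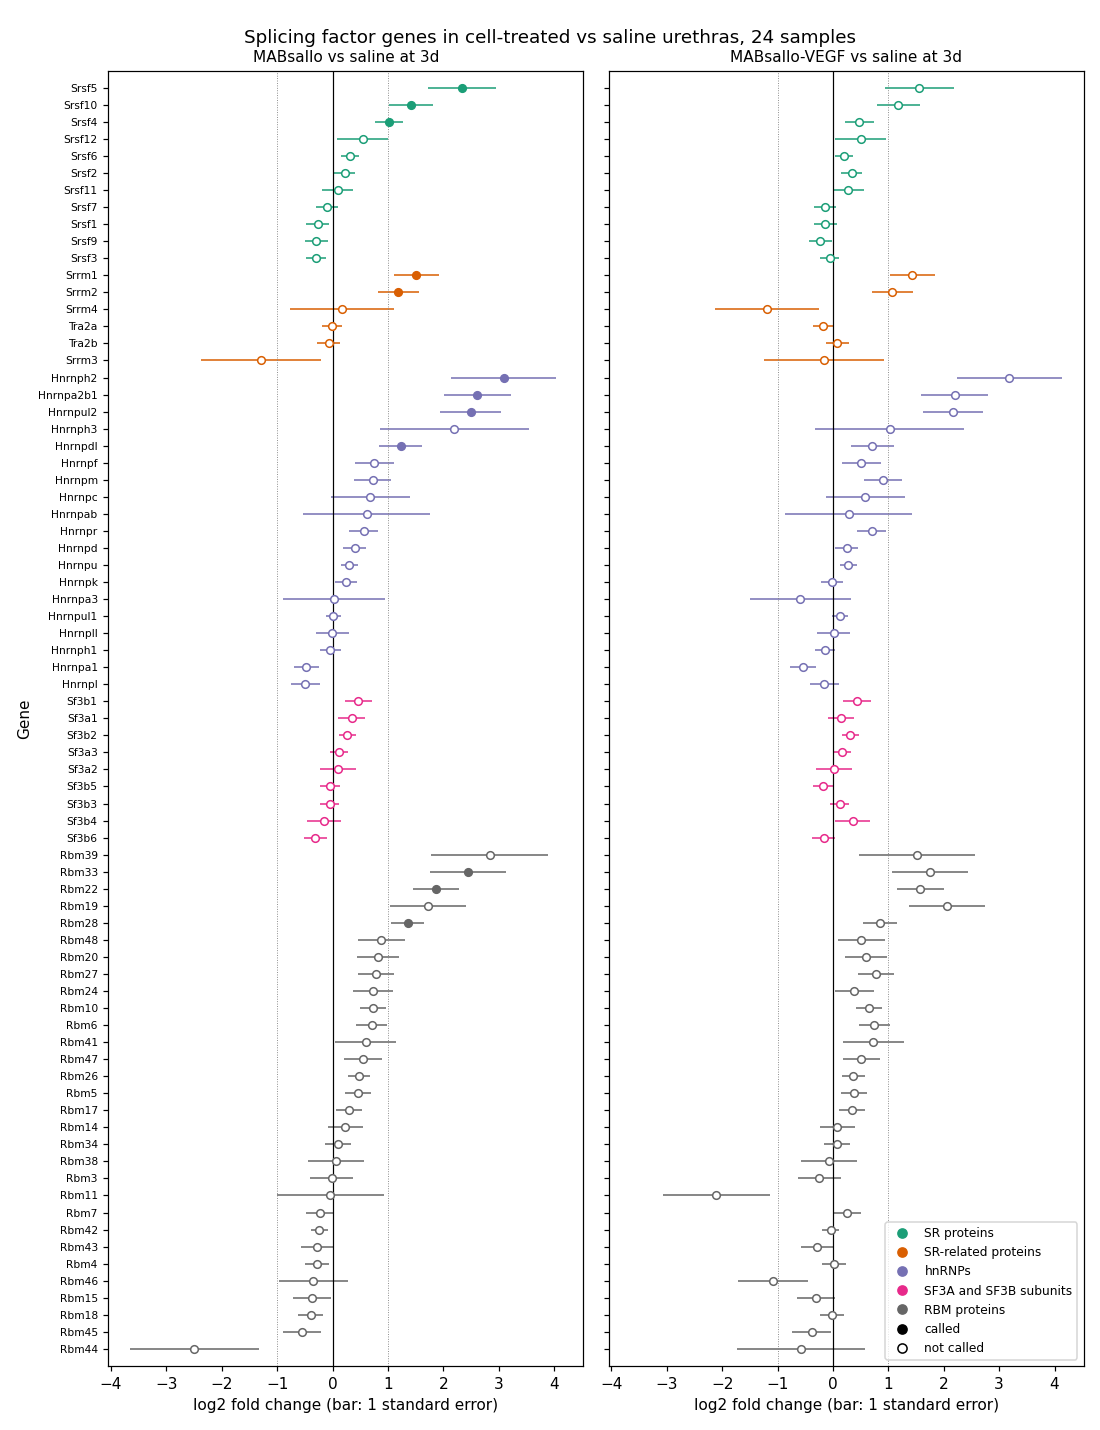
Log2 fold changes against saline at 3d for the 75 tested genes in the fit of all 24 samples, MABsallo on the left and MABsallo-VEGF on the right, coloured by role, with bars of 1 standard error and filled points for called genes. The 12 filled points on the left run from 1.02 for Srsf4 to 3.09 for Hnrnph2, and the right panel has none.

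Members called higher in MABsallo at 3d and the other members were also set beside their promoters, since these genes are mostly expressed in every cell. The upstream windows below are the 100 bases before the RefSeq start on GRCr8, 5′ to 3′ on the gene's strand, with capitals for a CCAAT box (CCAAT or ATTGG), a GC box (GGGCGG or CCGCCC) or a TATA box (TATAAA or TTTATA). They show 2 genes that were higher in MABsallo at 3d, Srsf5 (chr6:106336656-106336755, plus strand) and Hnrnpa2b1 (chr4:81875887-81875986, minus strand). They are followed by 2 that were lower at 3d than at 7d after MABsallo, Srsf3 (chr20:7093485-7093584, plus strand) and Hnrnpl (chr1:93228301-93228400, plus strand).
Srsf5: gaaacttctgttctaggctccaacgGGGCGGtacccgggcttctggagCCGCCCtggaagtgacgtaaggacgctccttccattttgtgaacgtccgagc
Hnrnpa2b1: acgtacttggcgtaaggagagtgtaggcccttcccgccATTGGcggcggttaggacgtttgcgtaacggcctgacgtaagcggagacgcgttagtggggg
Srsf3: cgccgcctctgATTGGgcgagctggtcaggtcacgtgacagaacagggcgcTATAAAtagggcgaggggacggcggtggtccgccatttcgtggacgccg
Hnrnpl: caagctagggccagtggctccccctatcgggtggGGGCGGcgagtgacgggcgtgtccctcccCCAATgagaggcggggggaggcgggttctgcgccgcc

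All 4 windows hold a CCAAT box or a GC box, and of them Srsf3 alone holds a TATA box. Srsf3 passed the adjusted p between the days but not the fold threshold. The windows of Rbm18, Sf3b4 and Sf3b6, which were called lower at 3d, hold no TATA box. That of Srsf2, which was not called, does. Over windows of 250 bases before to 50 after the start, 11 of the 12 called genes had an entry: 9 held a GC box (81.8%), 6 a CCAAT box (54.5%) and 0 a TATA box. Among the 57 other tested genes with an entry, which include genes called between the days, the shares were 54.4%, 49.1% and 14%. Among 1062 genes of the whole table called higher in the same comparison they were 67.9%, 35.1% and 5.18%, among 11166 promoters of all genes tested 59.6%, 37.5% and 7.74%, and among 27457 RefSeq promoters 34.9%, 37.7% and 14.3%. The median GC content was 65.7% for the called genes, 61.7% for the other tested ones, 64% for all genes called higher, 60.3% for all genes tested and 52.3% for all promoters. A motif match is a description of letters only.

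The time course was described next. Of the 75 genes, 37 (49.3%) had a higher mean log2 level at 3d than at 7d in saline, MABsallo and MABsallo-VEGF alike, against 32.4% of all genes tested, and 23 (30.7%) were lower at 3d in each treatment, against 27.2%. The 3 treatments use separate animals. By role, 11 of 19 hnRNPs, 6 of 11 SR proteins, 4 of 6 SR-related proteins and 13 of 30 RBM proteins were higher at 3d in each treatment. Those higher include Srrm4 and Hnrnpab, with at most 3 and 4 reads in any library. Those lower include Srrm3 and Rbm11, with at most 6 and 9. Directions of genes with so few reads carry little information. Of the 9 SF3A and SF3B subunits, 3 were higher and 5 were lower.

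**Figure D4:**
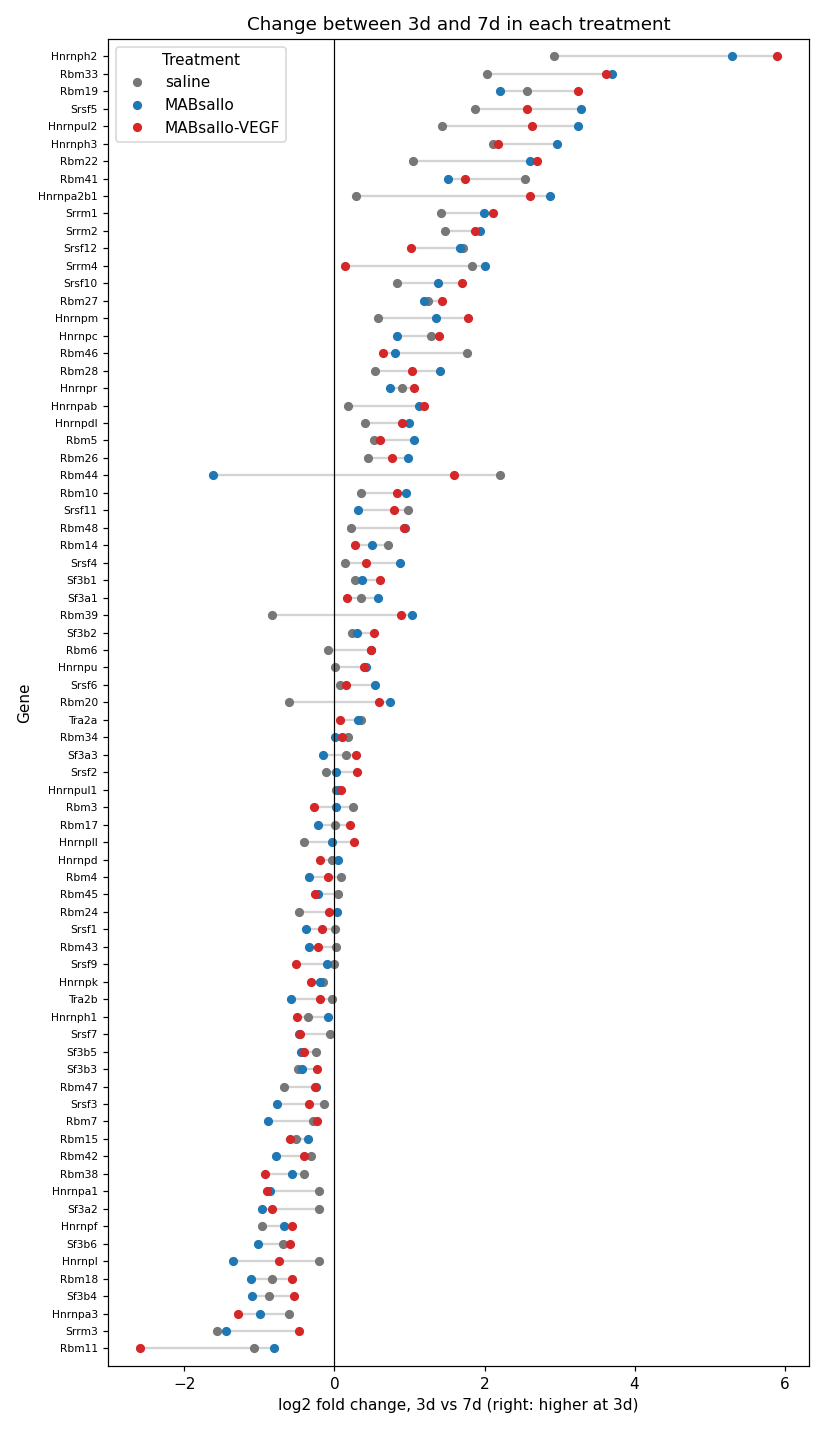
Log2 fold change between 3d and 7d in saline, MABsallo and MABsallo-VEGF urethras (3 points per gene) for the 75 tested genes, ordered by the mean of the 3, with positive values higher at 3d. Hnrnph2, Rbm33, Rbm19, Srsf5 and Hnrnpul2 lie above 0 in each treatment, and Hnrnpl, Rbm18, Sf3b4 and Sf3b6 lie below 0 in each.

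After MABsallo, 20 of the 75 genes were called between 3d and 7d, 16 higher and 4 lower at 3d (26.7%, against a background of 23%, of which 17% higher and 6.05% lower). Among the called genes, the largest differences were those of Hnrnph2, Rbm33, Srsf5, Hnrnpul2, Hnrnpa2b1 and Rbm22. Srsf5 fell from 706 to 1363 at 3d to 80.5, 212, 70.1 and 74.7 at 7d (3.29 ± 0.61, limma adjusted p = 0.000484). Hnrnpul2 went from 467 to 1463 at 3d to 92.9, 92.7, 50 and 99.6 at 7d (3.24 ± 0.55, limma adjusted p = 0.000226). Rbm22, at 445 to 831 at 3d, read 130, 139, 85.1 and 91.3 at 7d (2.61 ± 0.42, limma adjusted p = 0.000159). None of these overlapped between the days. Of the 75 genes, 19 were apart and higher at 3d (17.7% of all genes) and 11 apart and lower (9.33%). The libraries held 2170695 to 4491900 reads at 3d and 5478333 to 10166052 at 7d. Smooth muscle marker sums were apart (82929 to 144591 and 193733 to 208679), as were mast cell sums (241 to 369 and 609 to 1187). The other marker sums overlapped. After MABsallo-VEGF, depth was apart too (3042531 to 4261098 and 5415577 to 6288841). The part that depth or cell composition plays in the calls between days was not tested.

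Hnrnph2 read 6.19, 0, 1.67 and 41.5 at 7d after MABsallo, 0 to 10 reads per library, so its log2 fold change of 5.30 ± 0.95 rests on very few reads at 7d. After MABsallo-VEGF its 7d samples were all at 3 reads or fewer, and the 3d mean was at least 27.6-fold higher than a floor of 3 reads per library. Against the same floor, saline 3d was at least 2.95-fold higher than saline 7d.

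Srrm1 and Srrm2 were higher at 3d in each treatment. Srrm1 read 1140, 1215, 1132 and 1079 in saline 7d, the tightest group of the series for this gene, and 2404, 3026, 1401 and 2229 in MABsallo 7d. Its log2 fold change between days was 1.42 ± 0.40 in saline (limma adjusted p = 0.0499), 1.99 ± 0.40 after MABsallo (limma adjusted p = 0.00089) and 2.11 ± 0.40 after MABsallo-VEGF (limma adjusted p = 0.000932). For Srrm2 the same values were 1.48, 1.94 and 1.87, each ± 0.37, and each was called.

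The 4 genes called lower at 3d after MABsallo were Hnrnpl, Rbm18, Sf3b4 and Sf3b6. Hnrnpl, which binds CA repeats, read 5432, 3835, 2631 and 4112 at 3d and 9296, 7262, 7784 and 18032 at 7d (-1.35 ± 0.27, limma adjusted p = 0.00074). Sf3b6, the small subunit that touches the branch adenosine, read 1392, 1898, 1292 and 1362 at 3d and 2370, 2550, 2395 and 5408 at 7d (-1.02 ± 0.20, limma adjusted p = 0.000804). Sf3b4, which helps hold U2 on the pre-mRNA, fell short of its 7d level by a similar amount (-1.09 ± 0.31, limma adjusted p = 0.00956), as did Rbm18 (-1.11 ± 0.22, limma adjusted p = 0.000804). The days did not overlap for any of the 4, and in Hnrnpl, Sf3b4 and Sf3b6 replicate 13 of MABsallo 7d was far above the other 7d samples. Without that replicate Rbm18, Sf3b4 and Sf3b6 were no longer called, and Hnrnpl was. Rbm18 and Sf3b6 were also lost without MABsallo 3d replicate 1, and Sf3b4 and Sf3b6 without replicate 3 or 4. These calls were lost on the fold threshold. In the 24 fits that leave out 1 sample, the highest limma adjusted p was 0.00447 for Rbm18, 0.0475 for Sf3b4 and 0.00394 for Sf3b6. In saline, Rbm18 was lower at 3d past the adjusted p alone (-0.84 ± 0.22, limma adjusted p = 0.0361), and Sf3b6 read 1721 to 2011 at 3d and 2619 to 3165 at 7d (-0.68 ± 0.20, limma adjusted p = 0.0595).

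Srsf3 and Hnrnpa1 passed the adjusted p after MABsallo but not the fold threshold. Srsf3 read 2714 to 3117 at 3d and 4197 to 6756 at 7d (-0.77 ± 0.18, limma adjusted p = 0.00218). Hnrnpa1 read 2160 to 2772 at 3d and 3503 to 6914 at 7d (-0.85 ± 0.23, limma adjusted p = 0.00695), and after MABsallo-VEGF 2084 to 2525 at 3d and 3792 to 4748 at 7d (-0.90 ± 0.23, limma adjusted p = 0.0079). In saline its days overlapped (-0.21 ± 0.23). So Hnrnpa1 and Hnrnpa2b1, relatives with the same pair of RNA recognition motifs, pointed in opposite directions between the days in cell-treated urethras.

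**Figure D5:**
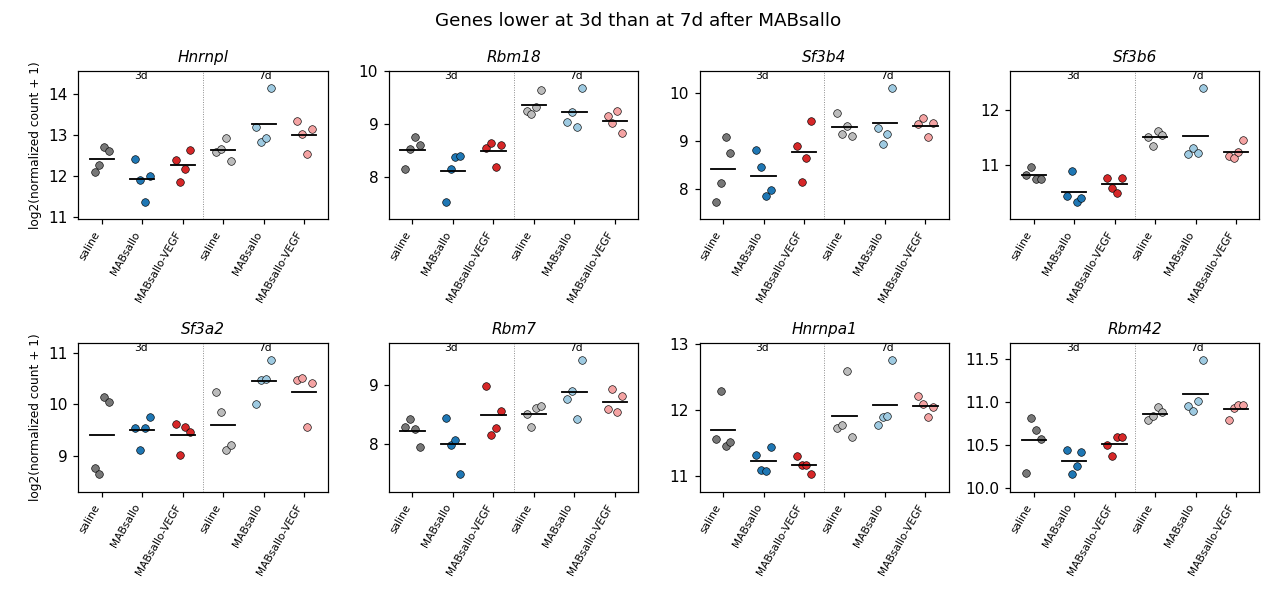
Points are single urethras as log2(normalized count + 1) and bars are means of 4, for the 8 genes with the largest falls at 3d among those past the adjusted p between 3d and 7d after MABsallo. Hnrnpl, Rbm18, Sf3b4 and Sf3b6 in the top row passed the fold threshold as well, and 1 MABsallo 7d sample, replicate 13, lies above the rest in most panels.

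After MABsallo-VEGF, 15 genes were called between the days and all 15 were higher at 3d (20%, against a background of 15.3% in either direction and 13.1% higher). Of the genes called after MABsallo and after MABsallo-VEGF, 14 were called in both, which is 70% of the 20 and 93.3% of the 15. The same overlap over all genes was not counted, so these shares cannot be read as particular to these genes. Hnrnpm, a repressor and activator of exons through GU-rich sites, read 3650, 3650, 3491 and 2191 at 3d and 1455, 1275, 1189 and 334 at 7d (1.78 ± 0.34, limma adjusted p = 0.000873). Rbm19, a ribosome assembly factor, read 324, 367, 277 and 147 at 3d and 36.3, 39.9, 12.4 and 28.4 at 7d (3.25 ± 0.69, limma adjusted p = 0.00196). Rbm27, an RNA decay adaptor, had 1.44 ± 0.33 and Hnrnpr 1.06 ± 0.26. Each of these 4 was higher in every 3d sample than in any 7d sample of the group, as were 18 of the 75 genes (13.8% of all genes), while 8 were lower (8.01%).

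In saline, 6 genes were called between the days, all higher at 3d: Rbm19, Rbm41, Srsf12, Srrm2, Srrm1 and Rbm27 (8%, against a background of 3.19% in either direction and 2.59% higher). Rbm41, a protein of the minor spliceosome, read 1357, 102, 500 and 489 at 3d and 84.6, 105, 111 and 28.3 at 7d. Replicate 8 at 3d lay inside the 7d range and replicate 6 far above the rest (2.55 ± 0.55, limma adjusted p = 0.0167). Srsf12, an SR protein that antagonises others, read 362, 223, 129 and 109 at 3d and 94.7, 47.3, 46.9 and 44 at 7d, without overlap (1.72 ± 0.46, limma adjusted p = 0.0387). These calls rested on single libraries: without saline 3d replicate 6 or saline 7d replicate 5 none remained, without saline 3d replicate 9 or 10 or saline 7d replicate 3 there was 1, without saline 7d replicate 2 there were 2 and without replicate 1 there were 3, while without saline 3d replicate 8 there were 12 (16%, against 7.86% of all genes). In the fits with 0 to 3 calls, 0.135% to 2.85% of all genes were called. Of the 6 calls, that of Srrm1 was lost most often and held in 5 of the 24 fits that leave out 1 sample. A fit of the 8 saline samples alone called none, and 23 had an unadjusted p below 0.05 in the fit of all 24 (18.8% of all genes). At an adjusted p below 0.05 alone there were 9 (3.83% of all genes). The days were apart without overlap and higher at 3d in 11 genes (5.65% of all genes) and lower in 5 (4.92%).

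Whether the fall from 3d to 7d differed between cell-treated and saline rats was tested by the interaction of treatment and day. In all 24 samples no gene of the whole table was called (background 0%), with 8 and 6 of the 75 at an unadjusted p below 0.05 for MABsallo and MABsallo-VEGF (13.6% and 8.23% of all genes), and none by DESeq2 or edgeR among the 75. For Hnrnpa2b1 the difference was 2.58 ± 0.85 for MABsallo (limma adjusted p = 0.225) and 2.32 ± 0.85 for MABsallo-VEGF (limma adjusted p = 0.542). Over 22 samples 3 genes were called for each, Hnrnpa2b1, Hnrnpul2 and Rbm22, against backgrounds of 3.56% and 3.59%. There Hnrnpul2 had 2.40 ± 0.51 (limma adjusted p = 0.0134) and 2.40 ± 0.53 (limma adjusted p = 0.019). Both interactions share the saline samples.

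At 7d none of the 75 genes was called between any pair of treatments, and the background was 0% in each. In limma 12 had an unadjusted p below 0.05 for MABsallo against saline (6.23% of all genes), 4 for MABsallo-VEGF against saline (6.34%) and 2 for MABsallo-VEGF against MABsallo (2.78%). Groups apart without overlap were 5 higher and 0 lower for MABsallo against saline (3.24% and 1.63% of all genes), 3 and 1 for MABsallo-VEGF against saline (2.92% and 3.12%), and 0 and 2 for MABsallo-VEGF against MABsallo (0.743% and 1.09%). DESeq2 and edgeR called none of the 75 in these comparisons. Rbm41 read 84.6, 105, 111 and 28.3 in saline 7d, 328, 364, 150 and 149 in MABsallo 7d and 221, 234, 168 and 230 in MABsallo-VEGF 7d. Those cell-treated values lay above all saline values (1.63 ± 0.55 and 1.53 ± 0.55), with limma adjusted p = 0.732 and 0.658.

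The wider splicing machinery was read from 5 lists with 108 genes tested. At 3d, 19 were called higher and 2 lower in MABsallo than in saline (19.4%, against 12.3% of all genes), and the list median was 0.29. Among the kinases and import factors of SR proteins, 3 of 9 were called higher: Clk4 (1.49 ± 0.37, limma adjusted p = 0.0143), Dyrk1a (1.06) and Srpk1 (1.05 ± 0.35, limma adjusted p = 0.0439). Clk4 and Srpk1 phosphorylate SR proteins. Clk1 had 0.27 ± 0.22 (limma adjusted p = 0.409) and Tnpo3, the SR protein importin, 0.13 ± 0.17 (limma adjusted p = 0.632). Of 12 genes listed as core snRNP proteins, some of which form the ring around the small nuclear RNAs, 1 was higher (Snrpd3, 1.10) and 1 lower (Snrpd1, -1.99). Of 35 other splicing regulators 8 were higher, led by Rbfox2 (3.06), Rbm15b (2.76), Ptbp3 (2.44) and Ptbp2 (2.36), and 1 was lower, Nova1 (-1.80). Of 36 spliceosome assembly and catalysis genes 5 were called, all higher, with U2af2 (3.97) and Prpf39 (2.17) the largest. U2af2 and Rbm15b had low means over all samples, 35.8 and 29.5 normalized counts, so their folds are less certain. Of 16 exon junction and nonsense-mediated decay genes 2 were higher, Smg1 (2.27) and Upf1 (1.91).

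Between the days after MABsallo, 24 of the 108 genes were called higher and 6 lower at 3d (27.8%, against 23% of all genes). Clk1 (1.04 ± 0.22, limma adjusted p = 0.00117) and Clk4 (2.30 ± 0.37, limma adjusted p = 0.000175) were among those higher. The 3 core snRNP proteins called, Snrpd1, Snrpa and Snrpa1, were all lower at 3d. Ptbp1 (-1.69), the general repressor of exons, was lower at 3d while its paralogs Ptbp2 (3.08) and Ptbp3 (2.09) were higher. After MABsallo-VEGF 22 were higher and 3 lower (23.1%, against 15.3%), in saline 7 higher and 0 lower (6.48%, against 3.19%), and against saline at 3d MABsallo-VEGF had 0 called (0.0307% of all genes). Over 22 samples that last comparison gave 21 higher and 2 lower (21.3%, against 13.6%), MABsallo against saline at 3d gave 25 and 2 (25%, against 18.1%), and saline between the days gave 1 and 0 (0.926%, against 0.19%).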

How the data were processed

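Urethral RNA from 24 rats (6 groups of 4, taken from the labels) was sequenced as 3′ mRNA tag libraries. The authors trimmed adapters with fastq-mcf, aligned reads to Rnor6.0 with HISAT2, discarded reads mapping to several loci, counted genes with HT-seq Count and divided counts by DESeq2 size factors. The deposited signal is that normalized count. All values came back to whole reads (tolerance 1e-06). Strand use in counting is not given in the sources used here. Nothing says that replicate numbers mark batches. No pair of replicates agreed within sampling noise.

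Values were tested as log2(value + 1) with limma 3.58.1 in R 4.3.3 (trend, 1 fit of 6 groups, genes with a mean of at least 2). Fold changes are on that scale and understate changes of low genes. DESeq2 1.42.0 and edgeR 4.0.16 were run on the recovered reads. The steps were tested on simulated data. Genes named are those called (at most 10 per direction), the 2 most abundant per role and a list of known factors, with Srsf4 and Hnrnpr added after their values were seen. The genes, lists and the 2 libraries left out were chosen with earlier results of these data known. Promoters came from RefSeq (GRCr8), matched by symbol for 69 of 77 genes.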

Additional observations from a re-analysis of the deposited data

Results flagged for a closer look

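Levels of the 43 named genes were searched in each group of 4 for a sample far from the other 3, by Dixon's ratio at the 95% level. Of 258 gene and group combinations 32 stood out (12.4%), where chance gives about 1 in 20, and members of one library are not independent.

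MABsallo 7d replicate 13 gave the most, with high values of Hnrnpa1 (6914, others 3503 to 3862), Hnrnpdl (1490, others 374 to 548), Hnrnph2 (41.5, others 0 to 6.19), Hnrnpk (7545, others 4449 to 4897), Rbm24 (1340, others 923 to 946), Rbm39 (37.4), Sf3b6 (5408, others 2370 to 2550) and Tra2b (6350, others 2427 to 2838). Within the same group Hnrnpul2 was low in replicate 11 (50.04, others 92.7 to 99.6) and Srsf5 high in replicate 9 (212, others 70.1 to 80.5).

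Saline 7d replicate 3 was high in Hnrnpa1 (6169, others 3072 to 3482), Rbm28 (355), Srsf2 (14505, others 9285 to 9890) and Srsf3 (5503), and saline 7d replicate 1 was high in Srsf12 (94.7). In saline 3d, replicate 6 was high in Hnrnpul2 (475, others 70.4 to 125), Rbm28 (575), Srsf2 (11824) and Srsf4 (1470, others 847 to 940), and replicate 8 was high in Hnrnpa1 (5001, others 2802 to 3030) and low in Hnrnpr (482, others 1215 to 1344).

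MABsallo-VEGF 3d replicate 4 was low in Hnrnpa2b1 (263, others 984 to 1117), Hnrnpm (2191, others 3491 to 3650), Rbm33 (57.9, others 481 to 567) and Srsf2 (9724, others 13343 to 13761), and replicate 2 of that group was low in Hnrnpr (1409, others 1674 to 1709). In MABsallo 3d, replicate 1 was high in Hnrnpm (4246) and Rbm19 (476), replicate 2 in Sf3b6 (1898), and replicate 3 in Hnrnpc (443, others 54.2 to 87.5) and Rbm39 (231, others 10.9 to 28.4). Sf3a1 was low in MABsallo-VEGF 7d replicate 12 (441, others 511 to 519).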

How the results depend on the processing

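The 12 calls for MABsallo against saline at 3d were 12 with a pseudocount of 5 or without the filter, 13 in DESeq2, 10 in edgeR, 10 after quantile normalization, 9 at the same total and 0 in a fit of those groups alone. The share of all genes called in those fits was 14.4%, 8.87%, 9.45%, 8.24%, 13.7%, 13.1% and 0.0304%, in that order. Leaving out 1 of the 24 samples gave 3 to 14, and the same gave 0 to 11 for MABsallo-VEGF against saline at 3d, 0 to 12 for saline, 15 to 23 for MABsallo and 13 to 17 for MABsallo-VEGF between the days, and 0 for each other comparison. The 0 calls for MABsallo-VEGF against saline at 3d became 2 with a pseudocount of 5, 6 in DESeq2 and 13 over 22 samples (1.11%, 1.93% and 13.6% of all genes). The 6 calls in saline between the days became 14 in DESeq2, 10 in edgeR, 0 in the 2 groups alone and 0 over 22 samples, while the share of all genes called went from 3.19% to 6.87%, 6.07%, 0% and 0.19%. The interactions rose from 0 to 3 and 3 over 22 samples. The cause of these changes was not tested.

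Quantile normalization and the same total moved the median log2 of all genes for MABsallo against saline at 3d from 0.07 to -0.14 and -0.19, and the higher share of all calls from 76.7% to 56.2% and 51.9%. Between the days that share went from 73.7% to 54.2% and 59.2% after MABsallo, and from 85.4% to 67.9% and 74.8% after MABsallo-VEGF. Every member called at 3d stayed positive under both. These members were selected for a large log2 fold change (the smallest was 1.02, for Srsf4), and the all-gene median moved by far less. Their sign was thus nearly fixed by the selection and says little about stability under normalization. The median of all tested members, called or not, stayed 0.38 and 0.21 above that of all genes.

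Of 2752 refits of single genes in the comparisons of MABsallo and of MABsallo-VEGF with saline at 3d, 32 changed sign, none in a gene called in that comparison. Called genes start from a log2 fold change beyond 1, and none was called for MABsallo-VEGF, so that absence says little about stability. For MABsallo against saline at 3d, at the same total the log2 fold change became -0.0371 for Hnrnpk, -0.0098 for Sf3b2, -0.1799 for Srsf11 and -0.0589 for Srsf2. It became -0.0064 for Srsf11 in edgeR, 0.0144 for Tra2a in DESeq2 and 0.1744 for Rbm3 over 22 samples. For MABsallo-VEGF it became -0.0884 for Sf3a1 and -0.1566 for Tra2b at the same total, -0.0131 for Tra2b in edgeR and -0.0906 for Sf3b4 over 22 samples. Leaving out 1 sample turned Hnrnph1 (range over all such fits -0.1577 to 0.1472), Rbm3 (-0.2358 to 0.1744), Rbm41 (-0.0895 to 1.1511), Sf3b4 (-0.3819 to 0.0737), Srsf11 (-0.1287 to 0.2958) and Tra2a (-0.1088 to 0.1513) for MABsallo. It turned Hnrnph1 (-0.264 to 0.041), Hnrnpk (-0.0698 to 0.0353), Rbm18 (-0.1356 to 0.0822) and Srsf3 (-0.1284 to 0.0186) for MABsallo-VEGF.

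MABsallo 3d and MABsallo-VEGF 3d share replicate numbers 1 to 4. Same-numbered samples had correlations of 0.0734 to 0.254 and others of -0.225 to 0.2, so the numbers were not taken as pairs, and the fit with the replicate block called 0 of the 75 genes, as without it.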

Other observations

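Some members were at or near the limit of detection. Of the 77, 3 had no group above 3 reads per library (Srsf8, Rbm12 and Srrm4), 6 were at that limit in some groups and 68 in none, while 32 had a mean of at least 1000 normalized counts. Hnrnpab had at most 4 reads, Rbm11 at most 9, Hnrnph3 at most 27, Rbm39 at most 25 and Hnrnpc at most 64 in any library. Their fold changes carry little information at this depth.

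The 2 rats marked as recovered in MABsallo-VEGF 7d had Srrm2 at 7520 and 8654, beside 4115 and 8180 in the other 2. Srrm1 stood at 2692 and 2211, beside 999 and 2188. Srsf11 stood at 7825 and 6523, beside 3954 and 5816. With 2 samples on each side no test was made.

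In MABsallo 7d replicate 13, genes that were not named by rule were also far above the rest of the group. They were chosen after their values were seen. Hnrnpf read 2834, beside 622 to 1031, Rbm17 read 3586, beside 1415 to 1670, and Rbm38 read 2606, beside 390 to 762.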
